A study of Mus musculus with 74 samples.

Results

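The comparison described here set microglia of mice with 1 functional Trem2 copy (Trem2 +/-, heterozygous knockout) against microglia of Trem2 +/+ mice (wild type), both fed a diet with 0.2% cuprizone for 12 weeks. It rested on 7 of the 74 libraries of the series, those of 4 heterozygous and 3 wild-type animals, chosen by the labels for cell fraction, genotype, diet and weeks, and it covered all genes. Set beside it were the 3 homozygous knockout animals (Trem2 -/-) on the same diet for 12 weeks, 4 heterozygous and 2 wild-type animals on control diet for 12 weeks, and 3 heterozygous and 3 wild-type animals on cuprizone for 5 weeks. Each of these groups held 1 male and otherwise females. The labels used here give no ages. Whole brains were dissociated after perfusion, and viable Cd11b+ cells were sorted as microglia. Cd11b also marks other myeloid cells such as border macrophages, monocytes and neutrophils. Values for single animals are listed below in the order 1040, 2476, 6296 and 9469 for heterozygotes, 981, 1748 and 9542 for knockouts, and 1746, 3917 and 8043 for wild type, all on cuprizone for 12 weeks.

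Cuprizone is a copper-chelating compound that is toxic to mature oligodendrocytes, and prolonged feeding gives chronic loss of myelin. Microglia engulf the myelin debris, and TREM2 is their surface receptor for lipids and lipoproteins, which signals through the adaptor TYROBP. Microglia that lack the receptor are known to fail to switch on the disease-associated genes, such as Apoe, Lpl and Clec7a, and to keep high levels of homeostatic genes such as P2ry12 and Tmem119. The comparison asks whether losing a single copy moves these genes in chronic demyelination.

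The genes that separated the genotypes included a pair of neighbouring ADP receptor genes and a pair of neighbouring complement genes, so the RefSeq start windows of these 4 genes are printed. P2ry12 and P2ry13 lie together within a stretch of 55 kb on chromosome 3, and C1qa, C1qb and C1qc within 18.7 kb on chromosome 4, all on the minus strand of GRCm38.p6. Of the 5 genes looked up, 4 had an entry in the RefSeq promoter table. Each window runs from 250 bases before to 50 bases after the RefSeq start and is written 5′ to 3′ on the gene's strand. Capitals mark GAGGAA or its reverse complement TTCCTC, the core of the motif of the myeloid factor PU.1. This run of letters, searched on both strands, occurs in 28.3% of the 32851 mouse promoters in the table.
P2ry12, chr3:59262936-59263235: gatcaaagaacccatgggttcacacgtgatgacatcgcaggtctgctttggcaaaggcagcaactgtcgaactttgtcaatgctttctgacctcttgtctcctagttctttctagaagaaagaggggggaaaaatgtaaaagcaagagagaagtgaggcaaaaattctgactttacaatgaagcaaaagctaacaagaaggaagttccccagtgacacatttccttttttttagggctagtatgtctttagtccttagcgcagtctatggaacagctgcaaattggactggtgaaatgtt
P2ry13, chr3:59210833-59211132: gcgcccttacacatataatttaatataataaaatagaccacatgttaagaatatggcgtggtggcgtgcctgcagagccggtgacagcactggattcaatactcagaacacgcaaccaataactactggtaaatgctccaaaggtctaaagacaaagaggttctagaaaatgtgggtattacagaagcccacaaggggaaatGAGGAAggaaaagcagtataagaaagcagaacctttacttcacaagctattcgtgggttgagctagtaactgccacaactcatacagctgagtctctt
C1qb, chr4:136886151-136886450: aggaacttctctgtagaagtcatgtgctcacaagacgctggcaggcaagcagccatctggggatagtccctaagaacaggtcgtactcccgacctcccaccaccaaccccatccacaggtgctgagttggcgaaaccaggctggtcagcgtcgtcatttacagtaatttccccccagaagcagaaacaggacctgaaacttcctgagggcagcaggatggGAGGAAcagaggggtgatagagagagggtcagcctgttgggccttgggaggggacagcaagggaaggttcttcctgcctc
C1qc, chr4:136892865-136893164: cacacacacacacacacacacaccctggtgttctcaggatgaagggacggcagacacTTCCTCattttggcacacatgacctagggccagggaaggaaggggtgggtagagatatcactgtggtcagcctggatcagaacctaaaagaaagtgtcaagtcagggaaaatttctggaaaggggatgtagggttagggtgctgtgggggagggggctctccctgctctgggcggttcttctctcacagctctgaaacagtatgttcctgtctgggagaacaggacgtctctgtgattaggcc
The P2ry13, C1qb and C1qc windows held 1 match each and the P2ry12 window held 0. The P2ry12 window ends 64 bases upstream of the GENCODE gene whose coordinates are given below, so it does not reach that annotated start, whereas the other 3 windows include theirs.

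Messenger RNA was read as tags near the 3′ end of transcripts, and the deposited values were whole-number counts per gene. The 4 heterozygous libraries held 1442730 to 2083569 counts and the 3 wild-type libraries 1167589 to 2028046. Levels are given as counts-per-million (CPM), and 1 CPM rested on 1.15 to 1.94 counts in these 7 libraries. Differences are log2 fold changes of heterozygotes minus wild type ± standard error (SE) from edgeR's quasi-likelihood test, fitted to all 37 microglia libraries with sex as a covariate. Adjusted p-values (Benjamini-Hochberg) are over all 14087 genes tested, with 0.05 as the threshold. In sorted pools, fewer cells of a type and less RNA per cell cannot be told apart. Defining microglia markers were abundant in both genotypes: Cx3cr1, the fractalkine receptor, stood at 8394 to 11049.8 CPM in heterozygotes and 8297 to 8634 CPM in wild type.

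Trem2 itself (ENSMUSG00000023992.14, chromosome 17, 48346401 to 48354147) was not lower in the heterozygotes on cuprizone. It stood at 924, 724, 971 and 1051 CPM in heterozygous microglia and 110.3, 244 and 116 CPM in knockouts, against 822, 1026 and 1037 CPM in wild type. Heterozygous and wild-type values overlapped, and all knockout values lay below both. The heterozygote difference was -0.06 ± 0.30 with a 95% interval of -0.66 to 0.53 (adjusted p = 1). On control diet the same genotypes did not overlap. There Trem2 stood at 429, 319, 346 and 302 CPM in the 4 heterozygotes against 900.0 and 703 CPM in the 2 wild-type animals. The difference of -1.19 ± 0.33 did not pass edgeR's test after adjustment over all genes (adjusted p = 0.348). The genotype-by-diet term for Trem2 was 1.13 ± 0.45 (adjusted p = 0.562), which did not pass either. The labels do not say which part of the gene is deleted, and tags outside it would be no check of the genotype. In the 7 libraries compared here, Trem2 counts did not separate the labelled genotypes.

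**Figure D1:**
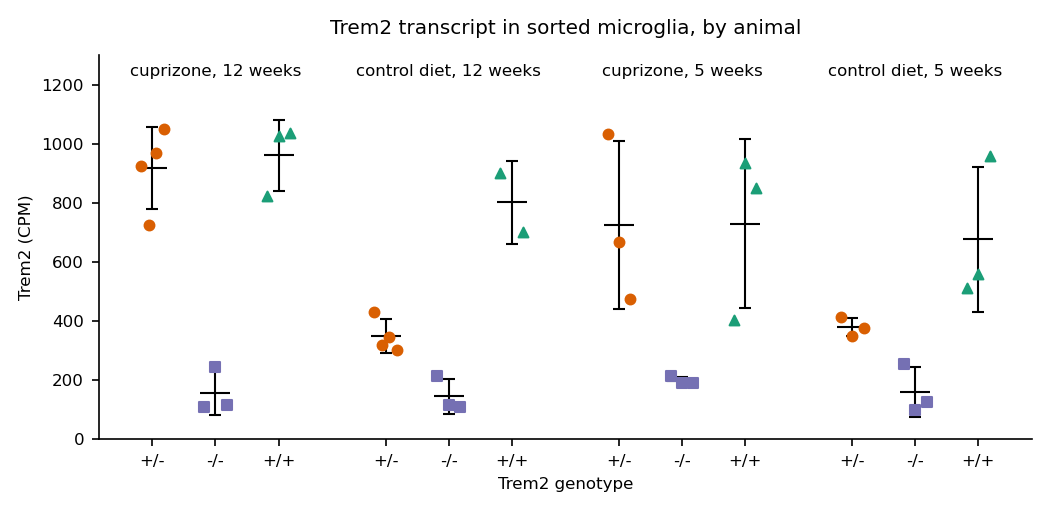
Trem2 level (CPM) in sorted microglia of each of the 37 animals, grouped by diet and weeks, with Trem2 +/-, -/- and +/+ animals side by side. Points are animals and bars are mean ± SD. At 12 weeks on cuprizone the heterozygotes (724 to 1051) lie among the wild-type animals (822 to 1037), whereas on control diet they (302 to 429) lie below them (703 and 900.0).

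Across the transcriptome, 17 genes rose in heterozygous microglia on cuprizone at 12 weeks and 0 fell. They made up 0.121% of the genes tested. At an unadjusted p under 0.05, 644 genes were higher and 560 lower in heterozygotes in edgeR. Other tools called more genes, 92 higher and 29 lower with DESeq2's Wald test (16 of the 17 among them) and 30 higher and 16 lower with limma on voom values (14 of the 17 among them). The 17 genes comprised the ADP receptors P2ry12 and P2ry13, the complement subunits C1qb and C1qc, the signalling adaptor Fcer1g, the leukotriene-pathway gene Alox5ap, 3 mitochondrially encoded genes, and 8 others. Their fold changes ran from 2.23 (C1qb) to 8.09 (Bmyc). The count was 3 without wild-type animal 3917, 3 without wild-type animal 8043, 11 without wild-type animal 1746, 9 without heterozygote 9469 and 30 without heterozygote 1040. All 17 genes were higher in heterozygotes in every fit that left out 1 animal. Every heterozygote lay above every wild-type animal for each of the 17, so leaving out 1 animal could hardly turn that direction, and it is no separate check.

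Another measure moved with the genotype in these libraries. Mitochondrially encoded genes took 4.05%, 4.45%, 4.16% and 4.57% of the counts in the heterozygous libraries, against 2.56%, 1.72% and 1.81% in the wild-type libraries. The knockout libraries, at 1.85%, 2.43% and 3.17%, also lay below every heterozygous library. The mean share was 4.30 ± 0.24% (SD, n = 4) in heterozygotes and 2.03 ± 0.46% (SD, n = 3) in wild type. An exact two-sided permutation test gave p = 0.0571, the smallest that 4 against 3 animals allow. With the share added to the model as a covariate, a choice made after the data were seen, 0 genes passed (smallest adjusted p of the 17 genes = 1). The share includes the counts of mt-Rnr1, mt-Cytb and mt-Nd5, so for these 3 genes the fit adjusted by a measure that holds them. In that fit 16 of the 17 kept a positive difference. The values were 1.18 for P2ry12, 1.04 for Alox5ap, 1.48 for Zcchc9 and 1.92 for Actr1b, but 0.21 for C1qb, 0.21 for C1qc, 0.23 for Fcer1g, 0.20 for Mt1 and -0.037 for mt-Nd5. Since the shares did not overlap, genotype and mitochondrial share cannot be told apart within these 7 libraries, nor between the 3 knockouts and the 4 heterozygotes. RNA integrity numbers were given for 2 of the 3 wild-type libraries (7.4 and 8.1) and for none of the 4 heterozygous libraries, so RNA quality could not be compared.

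The ADP receptors are surface proteins through which microglia sense nucleotides and steer their processes, and both are counted as homeostatic genes. P2ry12 (chromosome 3, 59216272 to 59262871) stood at 1505, 1664, 1569.9 and 1461 CPM in heterozygous microglia and 1229.6, 2071 and 1907 CPM in knockouts, against 539, 624 and 762 CPM in wild type. Every heterozygote and every knockout lay above every wild-type animal. P2ry12 rose by 1.35 ± 0.25 in heterozygotes (adjusted p = 0.0028) and by 1.45 ± 0.26 in knockouts (adjusted p = 0.000807), comparisons that share the wild-type animals. The knockout minus heterozygote difference was 0.10 ± 0.24 (adjusted p = 0.915), so P2ry12 did not separate the loss of 1 copy from the loss of both. P2ry13 (chromosome 3, 59207892 to 59210882) stood at 1268, 1372, 1218 and 1404 CPM in heterozygotes and 608, 855 and 897 CPM in knockouts, against 242, 381 and 472 CPM in wild type. Here the 3 genotypes did not overlap, and heterozygotes were highest. P2ry13 rose by 1.92 ± 0.37 in heterozygotes (adjusted p = 0.0106), and the knockout minus wild type difference of 1.13 ± 0.38 did not pass (adjusted p = 0.258). Gpr157, another G protein-coupled receptor gene, stood at 246, 294, 182 and 441 CPM in heterozygotes and 105, 119.5 and 135 CPM in knockouts, against 126, 99.4 and 76.5 CPM in wild type. It rose by 1.55 ± 0.35 (adjusted p = 0.0341) and was lower in knockouts than in heterozygotes by -1.32 ± 0.34 (adjusted p = 0.0373).

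C1q, which tags debris and synapses for removal, is assembled from chains encoded by C1qa, C1qb and C1qc. C1qc (chromosome 4, 136889804 to 136893065) stood at 6877, 6221, 6966 and 8848 CPM in heterozygotes and 2789, 3970.4 and 2789 CPM in knockouts, against 2719, 2549.9 and 2784 CPM in wild type. The heterozygotes stood apart from both other genotypes, with a rise of 1.44 ± 0.30 over wild type (adjusted p = 0.0204). C1qb (chromosome 4, 136880129 to 136886187) stood at 1242, 1735, 1377 and 1893 CPM in heterozygotes and 1136, 1233 and 1063 CPM in knockouts, against 764, 673 and 684 CPM in wild type, a heterozygote rise of 1.16 ± 0.26 (adjusted p = 0.0298). C1qa (chromosome 4, 136895917 to 136898803) ran the other way. It stood at 7273, 6838, 5642 and 7792 CPM in heterozygotes and 14650.1, 12831 and 4999 CPM in knockouts, against 10312, 18398 and 15878 CPM in wild type. The C1qa difference of -1.13 ± 0.28 did not pass (adjusted p = 0.0931), although every heterozygote lay below every wild-type animal. It passed with DESeq2's Wald test (adjusted p = 0.0083) and was 0.10 with mitochondrial share as a covariate, where its direction turned.

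The ratio of C1qc to C1qa CPM was 0.946, 0.91, 1.24 and 1.14 in the heterozygous libraries, against 0.264, 0.139 and 0.175 in the wild-type libraries. Both genes had separated these libraries, in opposite directions, so their ratio had to separate them too. The ratio is therefore a description and no further result. Among the 30 microglia libraries outside this comparison, 5 had a ratio at or above the lowest heterozygous library, and 2 had a mitochondrial share at or above the lowest heterozygous library. Those 5 were 1 wild-type, 1 heterozygous and 2 knockout animals on cuprizone for 5 weeks and 1 heterozygote on control diet for 12 weeks. The wild-type library, of animal 9144, had a ratio of 1.33 and a mitochondrial share of 4.65%, so that high values of both also occurred in a Trem2 +/+ library. It lay above the highest wild-type animal of the 12-week comparison for 16 of the 17 genes and reached the lowest heterozygous level for 4 of them. Heterozygote 1106 and knockout 8485, both on cuprizone for 5 weeks, lay above that wild-type level for all 17 genes and reached the lowest heterozygous level for 14 and 13 of them. Knockout 2478 and heterozygote 943, the others with a high ratio, also lay above it for all 17 and reached 6 and 9. Wild-type animal 2474, on cuprizone for 5 weeks, gave 16 and 4 with a ratio of 0.573 and a share of 3.26%. Over all 30 outside libraries, 6 to 17 of the genes lay above that wild-type level and 0 to 14 reached the lowest heterozygous level. A link of these counts to the ratio or the mitochondrial share was not tested.

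**Figure D2:**
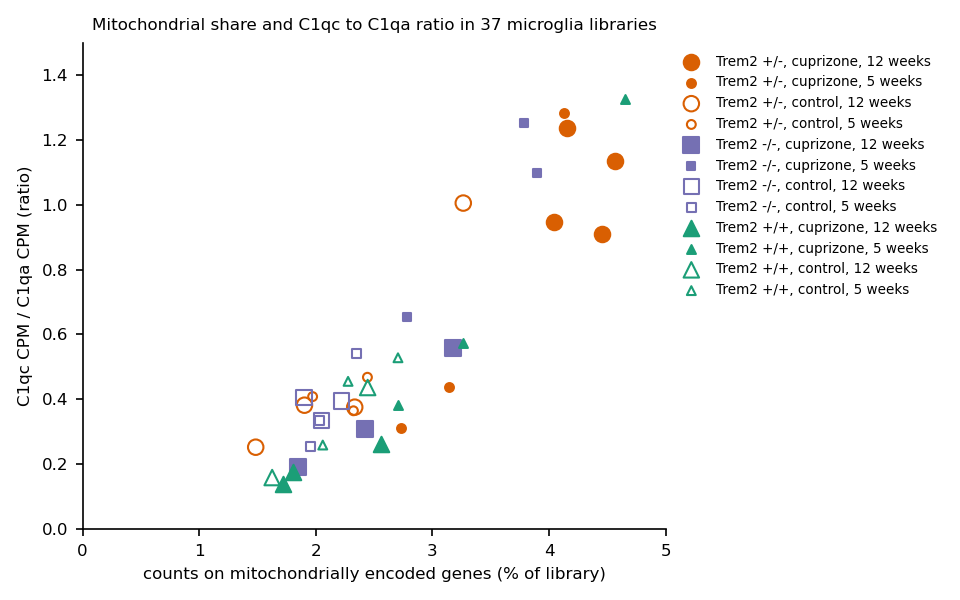
Share of counts on mitochondrially encoded genes (x axis, percent) and ratio of C1qc to C1qa CPM (y axis) in each of the 37 microglia libraries. Colours and shapes give the genotype, filled symbols cuprizone, and large symbols 12 weeks. The 4 heterozygotes on cuprizone for 12 weeks (4.05% to 4.57%, ratio 0.91 to 1.24) lie far from the 3 wild-type animals of that diet and time (1.72% to 2.56%, ratio 0.139 to 0.264), and a few libraries of other groups lie near the heterozygotes. C1qc and C1qa each separated these heterozygotes from these wild-type animals, in opposite directions, so their ratio had to do so.

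Of the immune signalling genes, Fcer1g encodes the common Fc receptor gamma chain, an adaptor of the same signalling type as TYROBP. It stood at 1275, 1552, 1305 and 1881 CPM in heterozygotes and 618, 737 and 721 CPM in knockouts, against 713, 635 and 570.0 CPM in wild type. Only the heterozygotes stood apart, with a rise of 1.25 ± 0.25 over wild type (adjusted p = 0.00893) and a knockout minus heterozygote difference of -1.15 ± 0.25 (adjusted p = 0.008). Alox5ap encodes the protein that hands arachidonic acid to 5-lipoxygenase. It stood at 329, 389.8, 327 and 303 CPM in heterozygotes and 318, 292 and 553 CPM in knockouts, against 66.1, 120.1 and 193 CPM in wild type. Like P2ry12, Alox5ap was higher in both genotypes with a lost copy, by 1.51 ± 0.26 in heterozygotes (adjusted p = 0.00203) and 1.62 ± 0.28 in knockouts (adjusted p = 0.000365). On control diet the heterozygotes were at 333 to 537 CPM and the wild-type animals at 457 and 300.3 CPM, so the wild-type group on cuprizone for 12 weeks was the low one.

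Mitochondrially encoded transcripts made up 3 of the 17 genes. The small ribosomal RNA mt-Rnr1 stood at 9756, 8501, 9933 and 10372 CPM in heterozygotes and 2811, 3387 and 3192 CPM in knockouts, against 3372, 2949 and 2981 CPM in wild type. It had the smallest p of all genes, with a rise of 1.64 ± 0.24 (adjusted p = 0.000102). The cytochrome b gene mt-Cytb rose by 1.56 ± 0.30 (adjusted p = 0.00938), with 5616 to 8736 CPM in heterozygotes and 2248 to 2825 CPM in wild type. The complex I gene mt-Nd5 rose by 1.65 ± 0.33 (adjusted p = 0.00893), with 628 to 973 CPM in heterozygotes and 186 to 335 CPM in wild type. Of all 22 mitochondrially encoded genes tested, 18 had a positive difference and 9 (40.9%) were higher without overlap, where 4.59% of all genes were. Their median was 0.98, with a range of -6.20 to 5.31. Among the 10 messenger and ribosomal RNAs in that family, 9 had a positive difference, 8 were higher without overlap and the median was 1.44. The family was singled out after its values were seen. Copies of mitochondrial sequence in the nuclear genome can share tags with these genes.

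Of the other called genes, Rps26 encodes a protein of the small ribosomal subunit and stood at 1578, 1845, 1233 and 1433 CPM in heterozygotes and 273, 566 and 367 CPM in knockouts, against 590.5, 382 and 468 CPM in wild type, a rise of 1.68 ± 0.30 (adjusted p = 0.0028). Of the other 81 cytosolic ribosomal protein genes, 0 were called and the median was 0.21, a family examined after its values were seen. In 13 of the 81 (16%) every heterozygote lay above every wild-type animal and in 3 (3.7%) below, where 4.59% and 4.73% of all genes did so. Among the 13 were Rplp2 (1.23 ± 0.32, adjusted p = 0.1), Rplp1 (0.94 ± 0.26, adjusted p = 0.139) and Rps21 (0.78 ± 0.31, adjusted p = 0.452). Rps26 has processed copies elsewhere in the genome, so its counts are uncertain. Mt1, a metallothionein that binds zinc and copper, stood at 337, 528, 387 and 509 CPM in heterozygotes and 208, 209 and 191 CPM in knockouts, against 142, 109 and 76.5 CPM in wild type. Mt1 rose by 2.02 ± 0.38 (adjusted p = 0.00534), with knockouts between the other genotypes. Basp1, a membrane-bound protein best known from growing axons, stood at 1834 to 2871 CPM in heterozygotes and 804 to 1094 CPM in knockouts, against 712 to 971 CPM in wild type (1.53 ± 0.27, adjusted p = 0.00203). Zcchc9, a zinc-knuckle protein gene, stood at 168 to 271 CPM in heterozygotes, against 49.1 to 83.8 CPM in wild type (1.73 ± 0.34, adjusted p = 0.00893). Sec14l1, which encodes a protein with a lipid-binding SEC14 domain, stood at 214 to 292 CPM in heterozygotes, against 56.8 to 115 CPM in wild type (1.67 ± 0.37, adjusted p = 0.0298). Bmyc, a Myc relative, stood at 164 to 292 CPM in heterozygotes, against 22.6 to 45.5 CPM in wild type (3.02 ± 0.63, adjusted p = 0.0289). Actr1b, a subunit of the dynactin motor complex, had low counts, with 63 to 81.3 CPM in heterozygotes and 27 to 93.3 CPM in knockouts, against 2.23 to 16.5 CPM in wild type. It rose in heterozygotes (2.93 ± 0.61, adjusted p = 0.0136) and in knockouts (2.74 ± 0.62, adjusted p = 0.018).

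**Figure D3:**
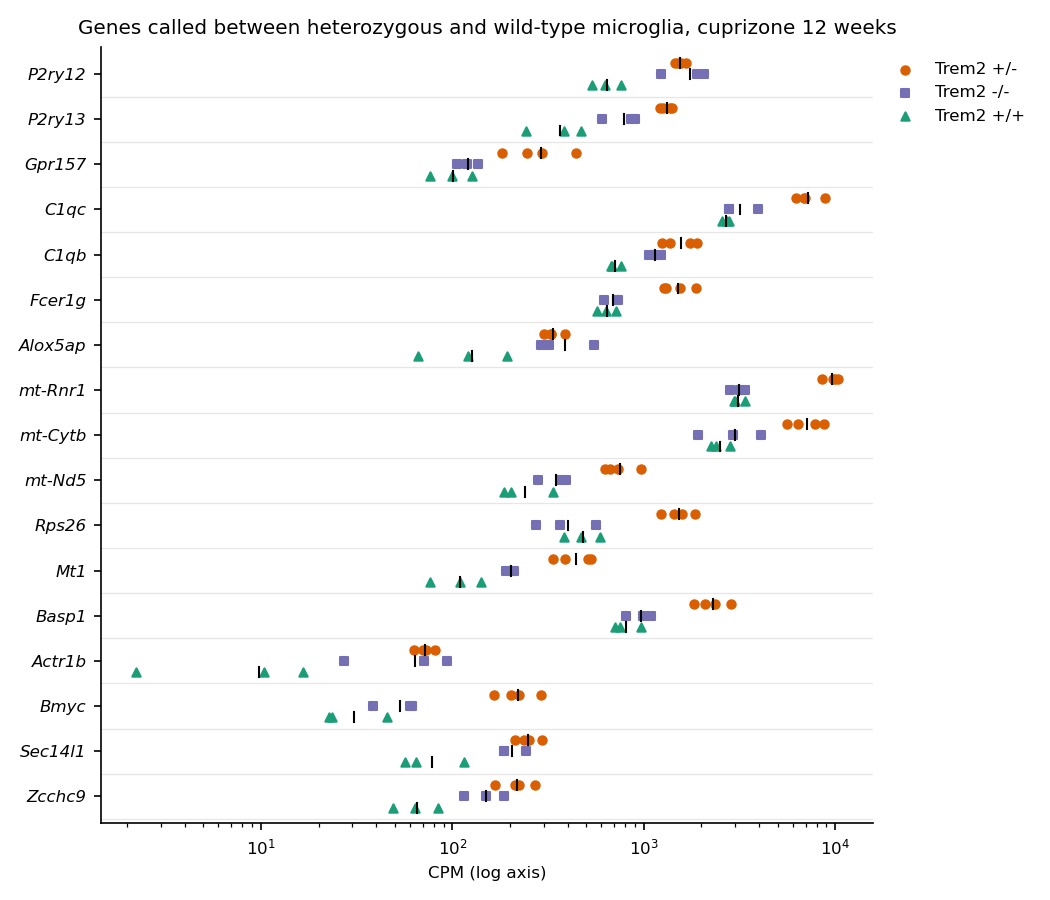
CPM on a log axis of the 17 genes called higher in heterozygous than in wild-type microglia on cuprizone at 12 weeks, with each animal of the 3 genotypes as a point and the group mean as a black tick. For P2ry12, Alox5ap and Actr1b the knockouts lie above the wild-type animals and near the heterozygotes, and for mt-Rnr1, C1qc, Fcer1g, Rps26 and Basp1 the knockouts lie near the wild-type animals.

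In the knockouts some of these genes lay near the wild-type and others near the heterozygous level. Of the 17, 12 were lower in all 3 knockouts than in all 4 heterozygotes, where 5.42% of all genes were. In edgeR, 7 were called lower in knockouts than heterozygotes (mt-Rnr1, Basp1, Rps26, Fcer1g, mt-Cytb, C1qc and Gpr157), where 1.05% of all genes were called and 0.752% in that direction. With mitochondrial share as a covariate 0 of these 7 passed, all 7 differences stayed negative, and the calls between knockouts and heterozygotes over all genes were 9 in place of 148. The differences in that fit ran from -1.06 for Rps26 (adjusted p = 0.369) to -0.12 for mt-Cytb (adjusted p = 0.987). The share includes the counts of mt-Rnr1 and mt-Cytb themselves. Knockouts were above all wild-type animals for 9 of the 17, where 5.48% of all genes were, and 3 (P2ry12, Alox5ap and Actr1b) were called higher in knockouts than wild type, where 0.114% of all genes were called in that direction. The comparisons share animals, and the 17 were chosen by the values of these same heterozygous and wild-type animals, which can raise such counts. The shares over all genes are therefore no like reference, and the counts are descriptions.

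Diet and duration were examined next. On control diet at 12 weeks, 0 genes were called between heterozygotes and wild type, with 684 higher and 330 lower at an unadjusted p under 0.05 in edgeR, and the genotype-by-diet term called 0, with 1059 at an unadjusted p under 0.05. DESeq2's Wald test called 21 and 16 genes in these comparisons, and limma 1 and 2. After 5 weeks of cuprizone 0 genes were called, with 600 at an unadjusted p under 0.05 and 1 gene called by DESeq2 and 2 by limma. The genotype-by-time term called 0, with 947 at an unadjusted p under 0.05, 4 called by DESeq2 and 1 by limma. For P2ry12 the heterozygote difference was 0.65 ± 0.28 on control diet (adjusted p = 0.59) and 0.07 ± 0.25 after 5 weeks of cuprizone (adjusted p = 1), and the diet interaction was 0.70 ± 0.36 (adjusted p = 0.658). P2ry12 ran between 1605 and 3201 CPM in heterozygotes on control diet and stood at 2667 and 1225 CPM in the 2 wild-type animals. Its level in wild type on cuprizone for 12 weeks (539 to 762 CPM) was below those. For mt-Rnr1 the diet interaction was 1.5 ± 0.34 (adjusted p = 0.223) and for Mt1 1.95 ± 0.54 (adjusted p = 0.415). A dependence of the 17 genes on diet or duration was therefore not established by these tests. Of the 17, 8 were higher in all heterozygotes on cuprizone than in all heterozygotes on control diet, where 4.69% of all genes were, and 7 were lower in all wild-type animals on cuprizone than in both on control diet, where 11.3% of all genes were. The 17 were chosen by the values of these same animals on cuprizone, which can raise both counts. The shares over all genes are therefore no like reference, and both counts are descriptions.

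The panel of 29 disease-associated, homeostatic and cholesterol-handling genes gave few calls in heterozygotes. Only P2ry12 was called in heterozygotes, where 0.121% of all genes were, against 8 in knockouts, where 0.44% of all genes were called. Apoe, the lipid carrier of activated microglia, stood at 17879.5, 15975, 19762 and 19657 CPM in heterozygotes and 4338, 4789 and 3666 CPM in knockouts, against 18582, 20887 and 16273 CPM in wild type. Heterozygous Apoe levels overlapped wild type, with a difference of -0.03 ± 0.23, whereas knockouts fell by 2.12 on the log2 scale (adjusted p = 3.1e-07). The lipoprotein lipase gene Lpl stood at 1607, 2111, 2645 and 1802 CPM in heterozygotes and 98.2, 56.5 and 123 CPM in knockouts, against 3249.9, 2642 and 2185 CPM in wild type. Its heterozygote difference was -0.41 with a 95% interval of -1.24 to 0.42, and its knockout difference was -4.83 ± 0.52 (adjusted p = 1.19e-06). Clec7a, Itgax, Axl and Soat1, the cholesterol-esterifying enzyme, were also lower in knockouts, by -2.07, -3.57, -2.47 and -1.28 in that order. Their heterozygote differences were -0.58, -0.17, 0.20 and -0.46, none of which passed. Tmem119, a homeostatic marker, stood at 321, 470.4, 306 and 354 CPM in heterozygotes and 576, 1021 and 625 CPM in knockouts, against 164, 287 and 332 CPM in wild type. It was called higher in knockouts than wild type (1.51 ± 0.27, adjusted p = 0.000807), while the heterozygote difference of 0.49 ± 0.25 did not pass (adjusted p = 0.586). For 7 of the 8 genes called in knockouts, all but P2ry12, the 95% interval of the heterozygote difference did not include the knockout estimate. The direct test of knockouts against heterozygotes called Apoe (-2.09 ± 0.25, adjusted p = 1.51e-07), Lpl (-4.42 ± 0.50, adjusted p = 2.85e-06), Axl (-2.67 ± 0.45, adjusted p = 0.000295), Itgax (-3.40 ± 0.64, adjusted p = 0.0045), Clec7a (-1.5 ± 0.32, adjusted p = 0.00742) and Tmem119 (1.03 ± 0.24, adjusted p = 0.0226), but not Soat1 (-0.82 ± 0.30, adjusted p = 0.204). With mitochondrial share as a covariate, Apoe (-1.94, adjusted p = 0.000444) and Lpl (-4.52, adjusted p = 0.000603) passed. In that fit Axl (-2.07, adjusted p = 0.183), Itgax (-3.57, adjusted p = 0.111), Clec7a (-1.06, adjusted p = 0.484) and Tmem119 (0.74, adjusted p = 0.566) did not.

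**Figure D4:**
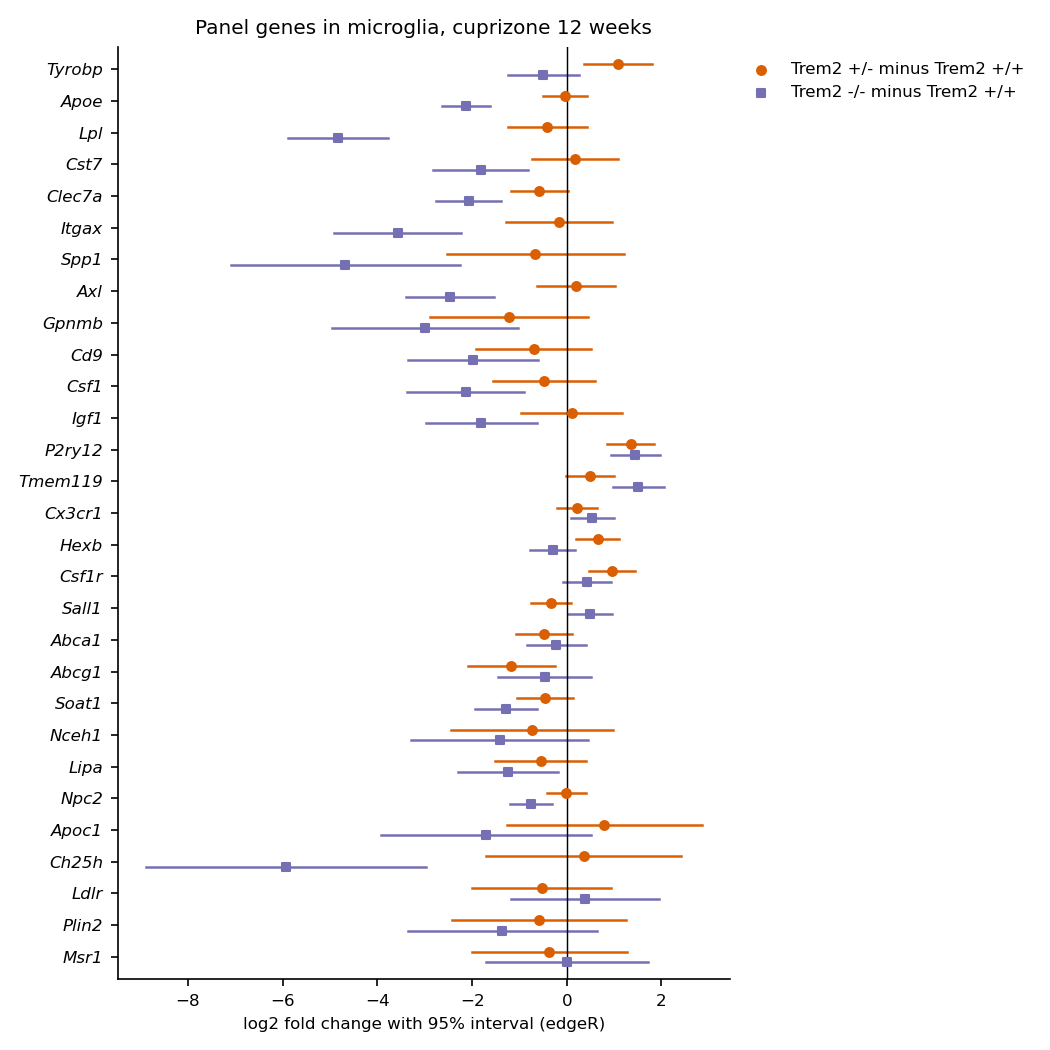
Log2 fold changes with 95% intervals from edgeR for the 29 panel genes in microglia on cuprizone at 12 weeks, heterozygotes minus wild type (circles) and knockouts minus wild type (squares), which share the wild-type animals. For Apoe, Lpl, Clec7a, Itgax and Axl the heterozygote intervals include 0 and the knockout estimates lie well below it. The heterozygote estimates of Lpl (-0.41, interval -1.24 to 0.42) and Clec7a (-0.58, interval -1.19 to 0.03) were themselves below 0. P2ry12 lies above 0 in both.

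Tyrobp, the adaptor of TREM2, stood at 4415, 6183, 5079 and 6192 CPM in heterozygotes and 1203, 3116 and 1174 CPM in knockouts, against 2585, 2941 and 2298 CPM in wild type. All heterozygotes lay above all wild-type animals, yet the difference of 1.08 ± 0.35 did not pass (adjusted p = 0.303). The knockouts were lower than the heterozygotes by -1.58 ± 0.36 (adjusted p = 0.0227), a call that did not hold with mitochondrial share as a covariate (-1.16, adjusted p = 0.566). Csf1r, the survival receptor of microglia, stood at 2372, 2512, 2777 and 1769 CPM in heterozygotes, against 972, 1252 and 1454 CPM in wild type, and did not pass (0.96 ± 0.25, adjusted p = 0.0985). Cholesterol exporters gave no call either: Abca1 was at -0.48 ± 0.29 (adjusted p = 0.663) and Abcg1 at -1.17 ± 0.46 (adjusted p = 0.438).

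A second set was taken from animals outside this comparison, the 11 genes that fell in knockout microglia, relative to wild type, after 5 weeks of cuprizone (0.0781% of genes). They were Lpl, Clec7a, Slamf8, Cd52, Pianp, Trem2, Phlda1, Ank, Axl, Ccl6 and Crip1. At 12 weeks 0 of the 11 were called between heterozygotes and wild type, 4 had a positive and 7 a negative difference, and the median was -0.12 with a range of -0.84 to 0.54. In 2 of the 11 every heterozygote lay below every wild-type animal, where 4.73% of all genes did so. Pianp, at 153, 133, 262 and 263 CPM in heterozygotes and 3.56, 0 and 1.10 CPM in knockouts, against 177, 143 and 105 CPM in wild type, was singled out after its values were seen: the heterozygotes overlapped wild type and the knockouts were near 0.

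Gene lists of microglial programs and of other cells were described by counts and medians. The median over all genes tested was 0.01, and groups did not overlap for 4.59% of genes in the higher and 4.73% in the lower direction. In edgeR, 0.121% of all genes were called higher and 0% lower in heterozygotes, and 0.327% were called lower in knockouts than wild type. The disease-associated list had 0 of 24 tested members called and a median of -0.32, against -2.10 with 10 called lower for knockouts minus wild type. In 7 of the 24 (29.2%) every heterozygote lay below every wild-type animal: Spp1, Gpnmb, Csf1, Ctsd, Ctsz, Ank and Mmp12. The lysosomal protease gene Ctsd stood at 4441, 4973, 6164 and 5288 CPM in heterozygotes and 4841, 3320.3 and 3949 CPM in knockouts, against 7679, 7929 and 7742 CPM in wild type, a difference of -0.60 ± 0.20 that did not pass (adjusted p = 0.301). Gpnmb, a glycoprotein of lipid-loaded phagocytes, stood at 369, 429, 400.4 and 411 CPM in heterozygotes, against 903, 1111 and 722 CPM in wild type (-1.22 ± 0.81, adjusted p = 0.712).

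The homeostatic list had 2 of 18 members called higher (P2ry12 and P2ry13) and a median of 0.46, with 6 members higher and 2 lower without overlap. The complement and Fc receptor list had 3 of 14 called higher (C1qb, C1qc and Fcer1g) and a median of 0.51, with 5 members higher and 2 lower without overlap. Over all genes tested, 0.121% were called higher, and 4.59% were higher and 4.73% lower without overlap. For antigen presentation 0 of 16 were called, the median was 0.61, and 7 (43.8%) were higher without overlap, among them H2-Aa, H2-Ab1, H2-Eb1 and Cd74 of the class II pathway. H2-DMa, which loads peptides onto class II molecules, stood at 161, 166, 166 and 313 CPM in heterozygotes, against 47.8, 83.2 and 119.9 CPM in wild type (1.30 ± 0.37, adjusted p = 0.166). For cholesterol efflux, transport and esterification 0 of 17 were called and the median was -0.05, and in 4 (23.5%), Soat1, Nceh1, Npc1 and Lipa, every heterozygote lay below every wild-type animal. Soat1 averaged 224 ± 3.7 CPM in heterozygotes and 309 ± 15.4 CPM in wild type (SD, n = 4 and 3). Medians were -0.06 for the TREM2 complex and signalling list (0 of 21 called), 0.00 for cholesterol biosynthesis and uptake (0 of 21), 0.04 for lipid droplets (0 of 20), -0.19 for the lysosome (0 of 29), 0.30 for the interferon response (0 of 20) and 0.37 for cytokines and chemokines (0 of 18). They were 0.34 for glycolysis and hypoxia (0 of 16), -0.01 for proliferation (0 of 18), 0.21 for immediate early and heat shock genes (0 of 22) and -0.63 for the integrated stress response (0 of 14). The shares without overlap in these lists reached 16.7% in the higher direction (cytokines and chemokines) and 13.8% in the lower (lysosome). Several members of the last lists had few counts, and their fitted values are imprecise.

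**Figure D5:**
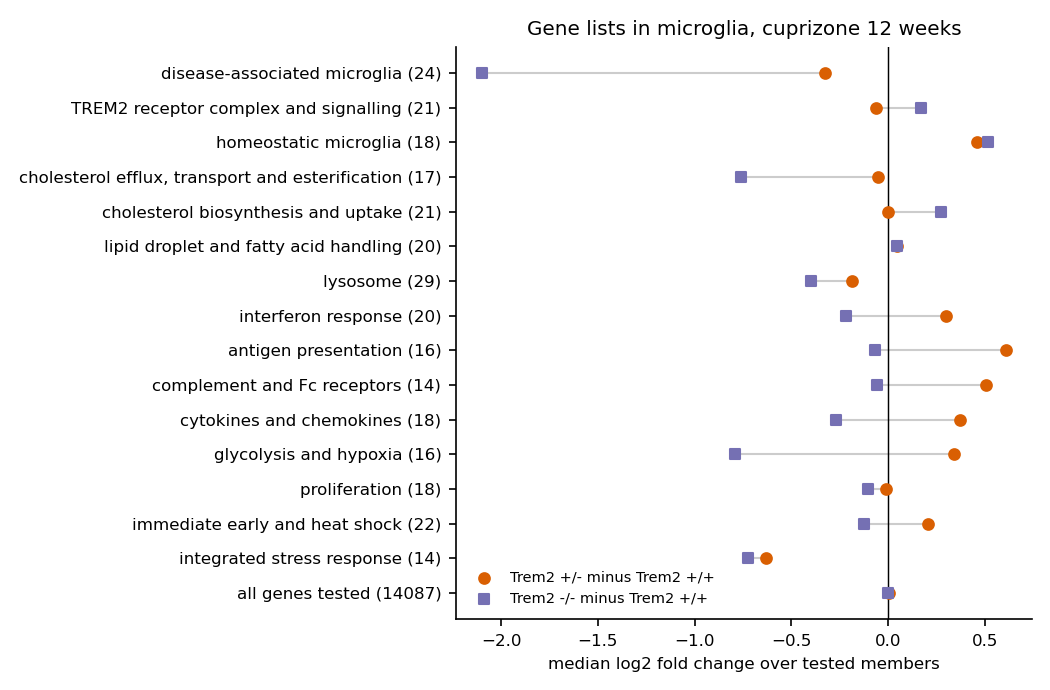
Median log2 fold change over the tested members of each gene list (number in brackets) for heterozygotes minus wild type (circles) and knockouts minus wild type (squares) in microglia on cuprizone at 12 weeks, which share the wild-type animals. The disease-associated list lies at -0.32 in heterozygotes and -2.10 in knockouts, and the homeostatic list at 0.46 and 0.51.

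Genes just beyond the threshold were named by the same rule in both directions, those with no overlap between genotypes and the smallest p. With DESeq2's Wald test or limma on voom values part of them passed, Sirpa with both. On the higher side they were Akr1b10, mt-Nd4, Rab39, mt-Nd1, Grb2, Rhoq, Il1a, Man1c1, Dcakd, Ptpn18, Dnajc2 and Csf1r. Grb2, an adaptor downstream of receptor signalling, stood at 270.1, 235, 276 and 413 CPM in heterozygotes, against 128, 132 and 142 CPM in wild type (1.19 ± 0.29, adjusted p = 0.0696). Il1a, the cytokine interleukin-1 alpha, stood at 325, 289, 359 and 393 CPM in heterozygotes and 64.8, 52.5 and 118 CPM in knockouts, against 106, 147 and 149 CPM in wild type. Its heterozygote difference of 1.40 ± 0.35 did not pass (adjusted p = 0.0833), but knockouts fell below heterozygotes by -2.24 ± 0.36 (adjusted p = 9.4e-05), or by -1.87 with mitochondrial share as a covariate, which did not pass (adjusted p = 0.0972). On the lower side the genes were Prrc2c, Ctnnbip1, C1qa, Kidins220, Sowahc, Sirpa, Wdfy1, Slc38a10, Arnt, Cerk, Psmd13 and Hdc. Sirpa, the receptor for the CD47 signal that restrains phagocytosis, stood at 1155, 1138, 1482 and 1086 CPM in heterozygotes and 1744, 1429 and 1734 CPM in knockouts, against 2296, 1956 and 2083 CPM in wild type (-0.80 ± 0.21, adjusted p = 0.114).

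Markers of other cells were compared in the same libraries. The summed level of 10 neutrophil markers ran from 111 to 349 CPM in heterozygotes and from 708 to 1142 CPM in wild type, without overlap. No single marker passed the test, and 5 of the 10 (S100a8, S100a9, Ngp, Camp and Retnlg) were lower in all heterozygotes, where 4.73% of all genes were. Retnlg stood at 0, 1.95, 2.87 and 0 CPM in heterozygotes, against 41.7, 20.7 and 32.6 CPM in wild type. The part of this neutrophil marker difference in the other results was not tested. Summed border macrophage markers (8 genes) ran from 297 to 617 CPM in heterozygotes and 364 to 496 CPM in wild type, and monocyte markers (4 genes) from 2.30 to 40.9 CPM in heterozygotes and 14.5 to 56.8 CPM in wild type. Mature oligodendrocyte markers (10 genes) ran from 411 to 604 CPM in heterozygotes and 289.9 to 481 CPM in wild type, astrocyte markers (9 genes) from 161 to 216 CPM and 191 to 259 CPM in the same order, and endothelial markers (8 genes) from 205 to 375 CPM and 318 to 499 CPM. These ranges overlapped between the genotypes. Neuronal, mural, oligodendrocyte precursor, erythroid, lymphocyte and ependymal marker sums overlapped as well, and 0 of their tested members were called.

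The nonmicroglial cells of the same 7 animals were sequenced as separate libraries. All 17 genes overlapped between the genotypes there, where 2.28% of genes were higher and 2.92% lower in heterozygotes without overlap. For 17 genes an absence of separation is near those shares, so it sets no contrast with microglia. Microglial genes were also low there. C1qb stood at 10.6 to 35.3 CPM in heterozygotes and 6.79 to 23.5 CPM in wild type, and Fcer1g at 9.42 to 21.8 CPM and 9.51 to 16.3 CPM. The transcript mt-Rnr1 stood at 6627, 6780.1, 24975 and 8297 CPM in the nonmicroglial libraries of the heterozygotes, against 6433, 6348 and 8596 CPM in those of the wild-type animals, with animal 6296 far above the rest.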

How the data were processed

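Viable Cd11b+ cells and all other viable cells of mouse brains were sequenced with low-input 3′ tag libraries, per the labels' protocols. The authors deposited whole-number counts of tags per gene, without normalization. Per the submitters' processing notes, the assembly was GRCm38.p6 and the tools included STAR, FastQC 0.11.5, R 3.4.3 and MultiQC. No source used here names the counting tool, the annotation or the strand setting, so overlapping genes and copies can share counts. Coordinates are GENCODE M21, matched by Ensembl identifier.

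Counts of the 37 microglia libraries (1043961 to 3945694, median 1782314) were fitted with edgeR 4.0.16 in R 4.3.3: filterByExpr with a minimum count of 10, TMM, 12 group means and sex, robust quasi-likelihood tests, two-sided, Benjamini-Hochberg over 14087 genes. SEs come from the F statistic. CPM use TMM library sizes. The animals are separate, so replicates are biological. In the 45 pairs of libraries compared, none was a copy of the other (lowest chi-square per degree of freedom 11). These are not all pairs of the 37 libraries. Alternatives were DESeq2 1.42.0 size factors and Wald test, limma 3.58.1 with voom, other count filters (none, or a minimum of 30), no sex term, females only, only the groups compared, the noncoding share as a covariate, and leaving out each animal. The mitochondrial share as a covariate was added after the data were seen. The code was tested on simulated data.

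Named are Trem2, a panel of 29 genes (1 further panel gene is not reported here), every called gene of the main comparison, the 12 genes per direction with the smallest p, no overlap and a mean log2 CPM of at least 3 that did not pass, up to 5 called genes per direction elsewhere, leading members of lists, and the genes called lower in knockouts at 5 weeks. The members and lists were chosen with earlier results of these data known. Sequences are from RefSeq.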

Additional observations from a re-analysis of the deposited data

Results flagged for a closer look

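In 3 of 81 values tested, 1 of the 4 heterozygotes on cuprizone for 12 weeks lay far from the others by Dixon's test, which chance alone gives in about 1 of 20 groups. Lipa, the lysosomal lipase that frees cholesterol, was at 42.3 CPM in animal 1040, against 68.2 to 72.9 CPM in the other 3. Rhoq, a small GTPase gene, was at 766 CPM in animal 9469, against 329 to 333 CPM in the other 3. Genes that do not code for protein took 6.87% of the counts of animal 2476, against 7.91% to 7.96% in the other 3.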

How the results depend on the processing

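No paired analysis was possible because each animal belongs to 1 genotype, diet and duration, and animal numbers are not shared between groups. The 17 calls between heterozygotes and wild type became 121 with DESeq2's Wald test, 46 with limma, 72 without a count filter, 63 in a fit of only the groups compared, 10 without the sex term and 0 with mitochondrial share as a covariate. They were 3 to 30 without 1 animal. On control diet the count of 0 became 21 (DESeq2), 1 (limma) and 73 (no filter). For genotype by diet the count of 0 became 16 (DESeq2), 2 (limma), 44 (no filter) and 1 (females only), with 0 to 1 without 1 animal. After 5 weeks of cuprizone it became 1 (DESeq2) and 2 (limma). For genotype by time it became 4 (DESeq2), 1 (limma), 19 (no filter), 1 (females only) and 1 (only the groups compared), with 0 to 9 without 1 animal. Knockouts against wild type gave 193 (DESeq2), 110 (limma) and 142 (no filter), with 33 to 66 without 1 animal, beside 62 in the main test. Knockouts against heterozygotes gave 447 (DESeq2), 279 (no filter), 45 (noncoding share as a covariate) and 9 (mitochondrial share), with 36 to 170 without 1 animal, beside 148. The causes were not tested.

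Single genes kept their side and direction in 1094 of the alternatives run, lost the call in 87, gained it in 74 and turned in 36. Those that turned had no call except mt-Nd5, which was -0.037 with mitochondrial share as a covariate. That share holds the counts of mt-Nd5 itself, and those of mt-Nd4 and mt-Nd1. With that covariate the log2 fold changes were 0.028 for Itgax, -0.52 for Axl, -0.61 for Igf1, 0.38 for Sall1, 0.11 for Npc2, -0.10 for mt-Nd4, -0.12 for mt-Nd1, 0.10 for C1qa, -0.12 for Pianp, 1.05 for Phlda1, 0.52 for Ccl6 and -1.06 for Crip1. In females only they were 0.0011 for Trem2, 0.31 for Phlda1 and 0.041 for Ccl6, and Phlda1 was 0.066 without the sex term. Igf1 was -0.0029 with noncoding share as a covariate, and Crip1 was -0.052 with limma. Npc2 was 0.0011 with DESeq2 size factors, 0.00052 with the Wald test, 0.0020 without a filter and 0.0044 with the stricter one. Without 1 animal, Apoe ran from -0.069 to 0.049, Ccl6 from -0.23 to 0.039, Ch25h from -0.24 to 0.69, Crip1 from -0.056 to 0.39, Igf1 from -0.019 to 0.22, Npc2 from -0.19 to 0.20, Phlda1 from -0.49 to 0.25 and Trem2 from -0.16 to 0.035. The heterozygote minus wild type difference in noncoding share ran from -0.883 to 0.619 percentage points and that in total counts from -303686 to 126543 without 1 animal. The share of the 20 most abundant genes differed by -0.14 percentage points, where that of the 50 most abundant differed by 1.10.

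Precision is limited by the 4 and 3 animals and, for low genes, by depth, since 1 CPM rested on 1.15 to 1.94 counts in the 7 libraries.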
